A study of Mus musculus with 1504 samples.

Results

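Of the 735 wells in the Mural columns of this mouse lung series, 102 (13.9%, exact 95% Clopper-Pearson interval 11.5 to 16.6%) were rich in transcripts of the alveolar type 2 (AT2) cell, an epithelial cell of the air sacs, although they had been sorted for reporters of the vessel wall. A well was called AT2-rich when Sftpc, the surfactant protein C gene, stood at 10000 CPM or more, that is, the reads of the gene scaled to a common total of the reads in genes, and at least as high as Scgb1a1, the secretoglobin of airway club cells. Sftpc and Scgb1a1 therefore chose the wells, and their levels are a description. The AT2-rich wells were set against 555 low-epithelial wells, in which Sftpc and Scgb1a1 together stayed under 1000 CPM. A further 61 wells lay in between, and 17 club-rich wells had Scgb1a1 at 10000 CPM or more and above Sftpc. The 102 wells are part of 1504 wells in all. Each of the 102 wells had reads of 15 to 25 of 25 AT2 genes after thinning to 50000 reads, with a median of 24, against a median of 2 in low-epithelial wells. The 25 include Sftpc and genes known to go with it, so this count describes the wells and is no independent check of their name. The wells held much else, so they are named for their transcripts and not as a cell type.

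Lungs of adult C57BL/6 mice, 12 to 15 weeks old by the sample labels and 10 to 19 weeks by the series design, were made into cell suspensions, and flow sorting placed the cells in the wells of 384-well plates. SMART-seq2, a method that copies whole polyadenylated transcripts without molecular identifiers, was run on each well. The labels give 361 wells from Pdgfrb(BAC)eGFP/NG2dsRed mice, 374 from Pdgfrb(BAC)eGFP mice and 769 from Cldn5(BAC)eGFP mice. The Pdgfrb reporter is a transgene on a bacterial artificial chromosome, and Pdgfrb is transcribed in pericytes, smooth muscle cells and many fibroblasts, so the sort could take any of these. The Mural columns come in the sets Mural1 (128 wells), Mural2 (233) and Mural3 (374), and no column name gives a reporter. Mural1 and Mural2 together have 361 wells, so the numbers match those of the Pdgfrb reporter groups, but no label states this match. If it holds, Mural2 and Mural3 also differ in reporter group, and set and reporter group cannot be told apart. No animal, plate or date is named, so each group of wells counts as 1 sample and no difference has a replicate check or a p-value. Bounds are exact 95% intervals that cover counting error only, since reads without molecular identifiers are not independent molecules. For shares of wells they treat wells as independent, although AT2-rich wells were unevenly spread over column sets and row letters. Such bounds, and limits given where no well was counted, may be too narrow.

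AT2 cells make and recycle pulmonary surfactant, a film of phospholipid and protein that lowers surface tension in the air sacs, and store it in lysosome-related organelles called lamellar bodies. They also act as progenitors of the flat alveolar type 1 cells, and in the mouse they carry MHC class II molecules and the lysozyme encoded by Lyz2, a gene better known from macrophages and neutrophils. They lie on the alveolar wall next to capillaries, pericytes and fibroblasts, and are not known to use Pdgfrb.

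Promoters are shown for 3 of the most abundant transcripts of these wells, because the lung transcription factor NKX2-1 is known to act on surfactant promoters and its own transcript was among those measured. The letters searched were CTCAAG, the core of the NKX2-1 motif, on both strands, and matches are in capitals. The windows run from 250 bases before to 50 bases after the transcription start, 5′ to 3′ on the strand of the gene, from RefSeq on GRCm38.p6.

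Sftpb promoter (chr6:72304360-72304659, plus strand): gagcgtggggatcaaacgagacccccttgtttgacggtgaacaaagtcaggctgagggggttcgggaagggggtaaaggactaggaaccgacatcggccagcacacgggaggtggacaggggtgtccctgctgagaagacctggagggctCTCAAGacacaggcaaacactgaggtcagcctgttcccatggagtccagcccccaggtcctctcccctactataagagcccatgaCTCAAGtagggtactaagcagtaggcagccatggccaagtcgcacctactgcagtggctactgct
Sftpa1 promoter (chr14:41131538-41131837, plus strand): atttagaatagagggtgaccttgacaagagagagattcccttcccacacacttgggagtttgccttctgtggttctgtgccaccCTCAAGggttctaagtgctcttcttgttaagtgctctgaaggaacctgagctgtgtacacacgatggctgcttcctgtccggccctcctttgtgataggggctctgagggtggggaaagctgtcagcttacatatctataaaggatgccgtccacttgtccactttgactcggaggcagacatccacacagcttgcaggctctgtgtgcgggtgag
Lyz2 promoter (chr10:117282223-117282522, minus strand): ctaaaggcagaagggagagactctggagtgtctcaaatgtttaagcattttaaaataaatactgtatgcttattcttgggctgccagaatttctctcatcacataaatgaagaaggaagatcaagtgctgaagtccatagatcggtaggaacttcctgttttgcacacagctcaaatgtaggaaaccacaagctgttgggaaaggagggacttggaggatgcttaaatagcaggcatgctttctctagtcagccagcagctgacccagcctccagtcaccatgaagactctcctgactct

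The Sftpb window held 2 matches, which began 100 and 15 bases before the start. The Sftpa1 window held 1, which began 166 bases before it, and the Lyz2 window held none. The window of Abca3, a further gene of the AT2 list that is not printed, also held none. No window was available for Sftpc, Sftpd and Napsa, so the gene that chose the wells could not be searched. Of all 32851 promoter windows, 5224 (15.9%) held the letters. Of the 25 genes of the AT2 list, 20 had a window and 6 of these (30%) held them, as did 3 of 12 fibroblast and 1 of 8 endothelial windows, and 0 of 9 pan-leukocyte windows. A match is a description of the letters and not a binding site.

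Surfactant genes were high in every AT2-rich well, with a wide spread among them. The rule itself put Sftpc (chromosome 14, 70520949 to 70524081, minus strand, GRCm38) at 10006 to 241636 CPM, with a median of 74043 CPM over the AT2-rich wells, against a median of 4.14 and a highest value of 790.3 CPM in low-epithelial wells. The 3 wells just inside the threshold held 10006, 10871 and 11826 CPM of Sftpc, and the 3 just outside 9288, 8985 and 8972 CPM. Sftpa1 (chromosome 14, 41131782 to 41136452, plus strand), a collectin that binds microbes, which the rule did not use, ran from 1205 to 62156 CPM, with a median of 14060 CPM, in AT2-rich wells, against a median of 0 and a highest value of 1038 CPM in low-epithelial wells. No AT2-rich well of the 102 fell below the highest low-epithelial well for Sftpa1. Sftpb (chromosome 6, 72304610 to 72314371, plus strand), the small hydrophobic protein without which no surface film forms, ran from 344 to 25224 CPM, with a median of 7803 CPM, in AT2-rich wells, against a median of 0 and a highest value of 332 CPM in low-epithelial wells, so that these ranges did not overlap either. The gaps between the groups were narrow for both genes beside the spread over the AT2-rich wells. Both genes are known to go with Sftpc, and the wells in between were left out, so the choice of wells favours such gaps. How many of all genes had ranges without overlap was not counted. Levels and folds from here on, where no range is named, are CPM of the reads summed over the wells of a group. By that measure Sftpa1 was 1852-fold (95% counting interval 1766 to 1943) and Sftpb 1782-fold (95% counting interval 1668 to 1906) higher in AT2-rich wells.

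A gene was called past the size rule when the higher side had at least 50 CPM, at least 25% of that side's wells held a read of it after each well was thinned to 50000 reads, and the fold was at least 4. Of 21947 genes, 301 were higher in AT2-rich wells by this rule (1.37%) and 16 lower (0.0729%). Only 4514 of the 21947 had at least 50 CPM on a side and so could pass. Counts of list members below, against low-epithelial wells, are to be read beside these shares. Without the Mural2 wells 165 genes were higher, and without the Mural3 wells 222 were lower. The AT2 list, with 24 measured genes beside Sftpc, had all 24 past the rule and higher, with a median log2 difference of 8.83, against 0.29 over all genes and -0.11 over genes of at least 50 CPM on a side. Since the list holds genes known to go with Sftpc and the wells were chosen by Sftpc, that count is no independent evidence. All 24 were also higher within Mural2 and 22 within Mural3, where the backgrounds were 1.80% and 0.875%.

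Apart from the surfactant proteins, the list spans the steps of surfactant handling. Sftpd, the second collectin, stood at 1828 CPM in AT2-rich wells, against 2.55 CPM in low-epithelial wells. Napsa, the aspartic protease that trims the surfactant protein B precursor, stood at 1554 CPM in AT2-rich and 1.64 CPM in low-epithelial wells. Lamp3, a protein of the lamellar body membrane, stood at 713 CPM in AT2-rich and 0.983 CPM in low-epithelial wells. Lpcat1, which makes the main surfactant phospholipid, and Abca3, which pumps phospholipid into lamellar bodies, were 14.4-fold and 13.5-fold higher, far smaller folds than those of the surfactant proteins, with 16.7 and 18.4 CPM in low-epithelial wells. The phosphate transporter Slc34a2 stood at 3245 CPM in AT2-rich and 2.67 CPM in low-epithelial wells, the lung chemokine Cxcl15 at 3282 CPM in AT2-rich and 2.46 CPM in low-epithelial wells. Slc34a2 and Cxcl15 were read in every AT2-rich well after thinning, and in 3.24% and 4.14% of low-epithelial wells. Complement component Hc stood at 722 CPM in AT2-rich and 0.993 CPM in low-epithelial wells.

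The 15 genes with the largest folds were mostly members of the list. Of those outside it, Kcne2, a potassium channel subunit, had 63.3 CPM in AT2-rich wells, with a read in 47.1% of them, and 2 reads in all low-epithelial wells together, a ratio with a counting interval of 1603 to 47939.8. Chia1, an acidic chitinase, stood at 721 CPM in AT2-rich wells, against 0.284 CPM in low-epithelial wells, and was read in 73.5% of the AT2-rich wells. Mlc1, a membrane protein best known from astrocytes, stood at 138 CPM in AT2-rich wells, against 0.0655 CPM in low-epithelial wells. Chia1 had a median of 298 CPM over AT2-rich wells and a highest value of 7478 CPM, so that its level was uneven among them.

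**Figure D1:**
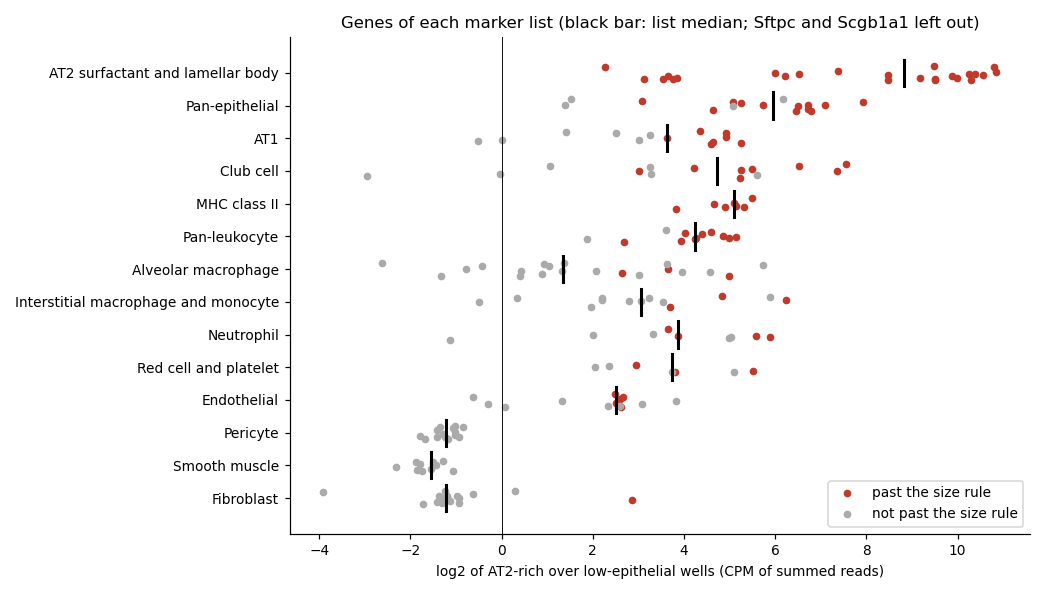
Each point is 1 gene of a marker list, placed by its log2 ratio of AT2-rich over low-epithelial wells (horizontal axis), with lists down the page; red points are past the size rule, grey points are not, and the black bar is the list median. The AT2 list lies farthest right with a median of 8.83, the pan-epithelial and MHC class II medians follow with 5.95 and 5.09, the pan-leukocyte median is 4.25, and the pericyte, smooth muscle and fibroblast medians lie left of 0.

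Lipid synthesis genes were higher in part. Of 22 measured, 7 passed the rule and none was lower, with a median log2 difference of 1.38, where 1.37% of all genes were higher. Scd1, the desaturase that makes monounsaturated fatty acids, stood at 4598 CPM in AT2-rich wells, against 101 CPM in low-epithelial wells, and within the sets it was 6.64 (Mural2) and 4.50 (Mural3) higher on the log2 scale. Fasn, the fatty acid synthase, which is also on the AT2 list, was 8.70-fold and Elovl1, an elongase, 9.41-fold higher, and Acoxl, Fabp5, Lpin2 and Acsl4 also passed. Hmgcs1, an enzyme of sterol synthesis, stood at 112 CPM in AT2-rich and 57.4 CPM in low-epithelial wells, and the sterol regulator Srebf2 at 142 CPM in AT2-rich and 141 CPM in low-epithelial wells, and neither passed.

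General epithelial genes accompanied the surfactant genes. Of 16 pan-epithelial genes, 12 were past the rule and higher, among them the adhesion proteins Epcam, at 143 CPM in AT2-rich wells, against 1.35 CPM in low-epithelial wells, and Cdh1, at 191 CPM in AT2-rich wells, against 3.61 CPM in low-epithelial wells. At least 3 of the 16 had a read after thinning in 97.1% of AT2-rich wells (91.6 to 99.4%), in 67.2% of the wells in between and in 3.24% of low-epithelial wells. A list with 3 or more such markers is called held by a well. Of 16 lung epithelial transcription factors 5 passed. Over all genes, 1.37% were higher. Nkx2-1, the regulator of lung identity, stood at 179 CPM in AT2-rich and 1.29 CPM in low-epithelial wells. Cebpa and Etv5 stood at 114 and 196 CPM in AT2-rich wells, against 7.73 and 15.7 CPM in low-epithelial wells, and Rbpjl and Ehf at 75.1 and 50.9 CPM in AT2-rich wells, against 0.666 and 0.671 CPM in low-epithelial wells. Foxa1 and Foxa2, which also act on surfactant genes, had 42.4 and 35.6 CPM in AT2-rich wells, under the floor of 50 CPM. Sox2, a factor of conducting airways, stayed at 0.603 CPM in AT2-rich wells.

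Genes of the other epithelial cells of the lung were present in the same wells. Of 13 alveolar type 1 genes 7 passed, 2 of them (Krt7 and Cldn18) also on the pan-epithelial list. Ager, the receptor that marks type 1 cells most strongly, stood at 1002 CPM in AT2-rich wells, against 33.0 CPM in low-epithelial wells, and Aqp5, their water channel, at 303 CPM in AT2-rich and 10.0 CPM in low-epithelial wells. Pdpn and Hopx, a further pair of type 1 markers, did not pass, with 142 and 18.2 CPM in AT2-rich wells, against 204 and 1.92 CPM in low-epithelial wells. Of 14 club cell genes beside Scgb1a1 8 passed. For both lists, the share of all genes that were higher was 1.37%. Cbr2, a carbonyl reductase, stood at 2588 CPM in AT2-rich and 69.0 CPM in low-epithelial wells, and Hp, haptoglobin, at 465 CPM in AT2-rich and 25.1 CPM in low-epithelial wells. The secretoglobin Scgb3a2 stood at 217 CPM in AT2-rich and 1.33 CPM in low-epithelial wells. Scgb1a1 itself, which the rule capped at the level of Sftpc, was at 10000 CPM or more in 17 of the 102 wells, and the highest ratio of Scgb1a1 to Sftpc was 0.884. Of 10 ciliated cell genes only Sec14l3 passed, at 749.8 CPM in AT2-rich and 24.8 CPM in low-epithelial wells. Foxj1, the ciliated cell regulator, had 0.905 CPM in AT2-rich and 0.207 CPM in low-epithelial wells. The ciliated list was nonetheless held by 59.8% of AT2-rich, 47.1% of club-rich and 1.62% of low-epithelial wells. Low-epithelial wells held the AT2 list in 44.0% and the alveolar type 1 list in 25.8% of cases. A held list is therefore no proof of the cell type.

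**Figure D2:**
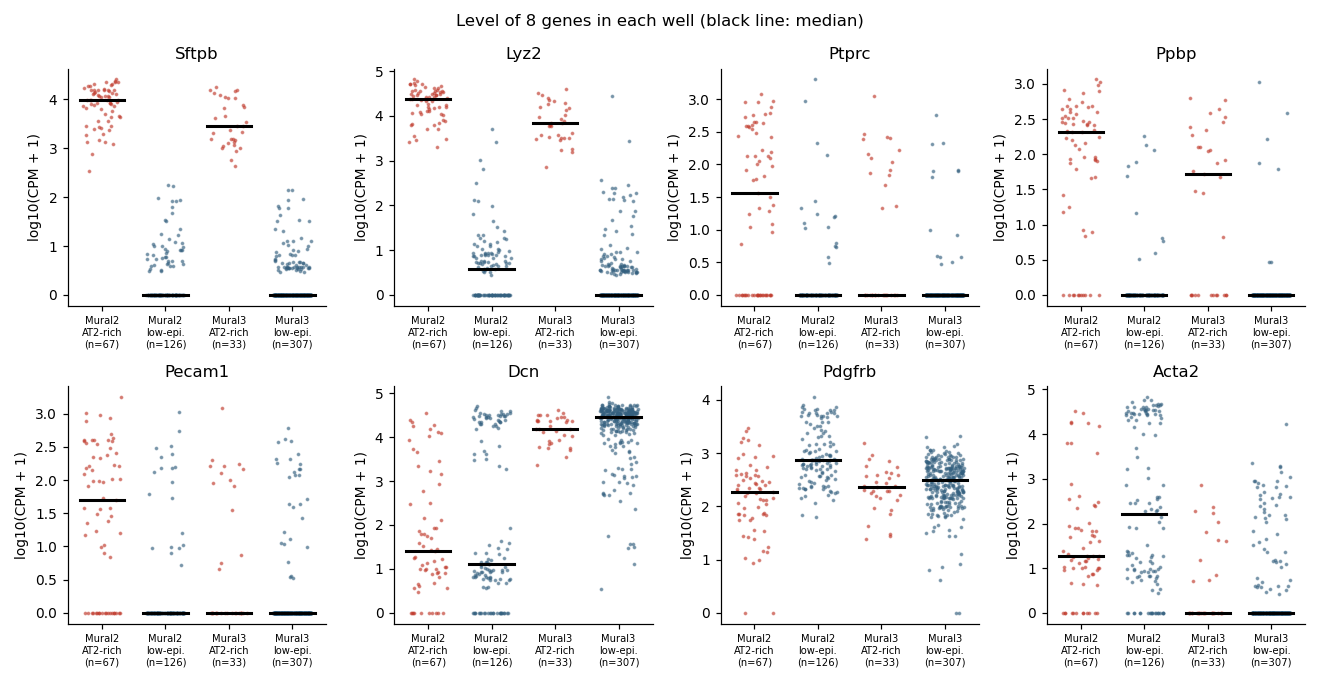
Each point is 1 well, and the vertical axis of every panel is log10(CPM + 1) of the gene named above it; wells of Mural2 and Mural3 are shown with AT2-rich wells (red) left of low-epithelial wells (blue) and a black line at the median. The medians of Sftpb and Lyz2 stand far apart in both sets, Ptprc, Ppbp and Pecam1 are read mostly in AT2-rich wells, and Dcn, Pdgfrb and Acta2 differ by set.

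Lyz2 (chromosome 10, 117277331 to 117282321, minus strand) is shared by AT2 cells and by macrophages and neutrophils, so its level was set beside both. Over the AT2-rich wells it ran from 715 to 87077 CPM, with a median of 17561 CPM, against a median of 0 and a highest value of 27083 CPM in low-epithelial wells, so that the ranges overlapped. Summed over wells it was 357-fold (95% counting interval 350.4 to 364) higher. Within Mural2 it stood at 26849 CPM in AT2-rich and 57.9 CPM in low-epithelial wells, and within Mural3 at 9972 CPM in AT2-rich and 67.8 CPM in low-epithelial wells. Among the 102 wells Lyz2 went with the summed level of the other AT2 genes, with a Spearman rho of 0.84 (0.76 over the 67 wells of Mural2, 0.90 over the 33 of Mural3). With the summed level of the macrophage and monocyte lists its rho was -0.04. These values describe wells that share column sets, and both measures of a well share its total of reads.

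In 7 AT2-rich wells, none of 10 macrophage, monocyte and leukocyte genes had a read, and Lyz2 still ran from 1523 to 65109 CPM there, with a median of 6885 CPM. The median ratio of Lyz2 to Sftpc was 0.216 in those 7 wells and 0.252 in all 102. Cd74 had a median of 860.4 CPM in the 7 wells and 5134 CPM in all 102. Lyz1, the neighbouring and nearly identical lysozyme gene, behaved otherwise: it stood at 1813 CPM in AT2-rich wells, against 1.20 CPM in low-epithelial wells, with a median of 174 and a highest value of 27047 CPM over AT2-rich wells, and its rho with the AT2 genes was 0.05. How the authors' counting split reads between Lyz1 and Lyz2 is not given in the sources used here, so the values of both are uncertain to that extent.

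**Figure D3:**
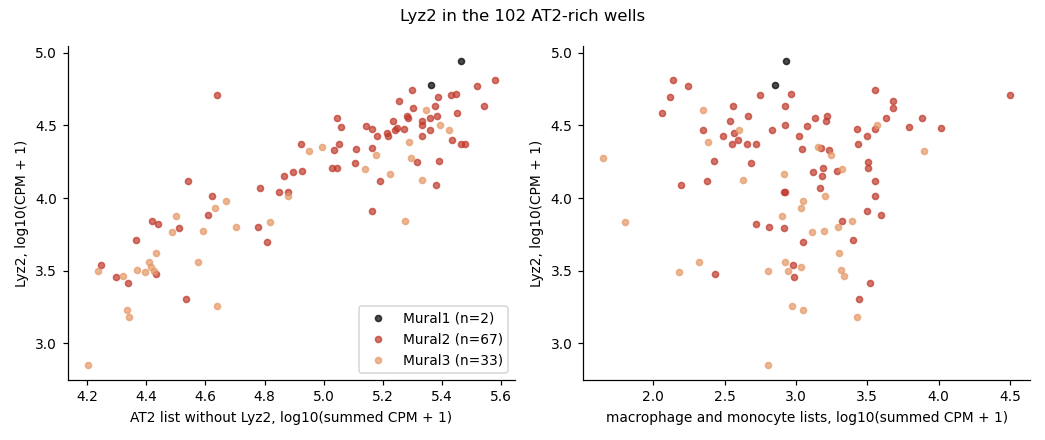
Each point is 1 of the 102 AT2-rich wells, coloured by column set; the vertical axes give Lyz2 as log10(CPM + 1), the left horizontal axis the summed CPM of the other AT2 genes and the right one that of the macrophage and monocyte lists, both as log10(summed CPM + 1). Lyz2 climbs with the AT2 genes (rho 0.84) and shows no trend with the macrophage and monocyte genes (rho -0.04).

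The same comparison was made for other genes among the AT2-rich wells. Sftpa1, Cxcl15 and Scd1 had rho values of 0.94, 0.92 and 0.75, and Ager 0.60. The pan-leukocyte, platelet and endothelial sums had values of 0.04, 0.01 and -0.04, near 0. Cd74 was at 0.40 over all wells, but 0.06 within Mural2 and 0.70 within Mural3. Scgb1a1, which the rule bounds by Sftpc, was at -0.46, and the fibroblast sum at -0.52, -0.33 within Mural2 and -0.68 within Mural3. A gene that takes a large share of a well's reads lowers the CPM of all others in it. The values above are on the total of all reads. They were also computed on totals without surfactant and club transcripts, which are not reported here. The part of this lowering in the negative values was not tested beyond that.

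MHC class II genes, which AT2 cells and leukocytes both use, passed the rule as a set, 7 of 7, where 1.37% of all genes were higher. Cd74, the invariant chain, stood at 7252 CPM in AT2-rich wells, against 160.4 CPM in low-epithelial wells (45.2-fold), and H2-Aa, an alpha chain, at 2435 CPM in AT2-rich wells, against 61.2 CPM in low-epithelial wells. Ciita, the regulator of the pathway, was 14.2-fold higher, at 50.5 CPM in AT2-rich wells. The list was held by 97.1% of AT2-rich wells, 72.1% of the wells in between and 4.14% of low-epithelial wells.

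Leukocyte genes that AT2 cells are not known for were read in most AT2-rich wells. Of 12 pan-leukocyte genes 10 passed the rule and were higher, where 1.37% of all genes were. Ptprc, the CD45 antigen carried by all leukocytes, ran from 0 to 1199 CPM, with a median of 20.4 CPM, over AT2-rich wells, and had a median of 0 and a highest value of 2002 CPM in low-epithelial wells. It had a read after thinning in 52.0% of AT2-rich and 4.32% of low-epithelial wells, so that its ranges overlapped while the shares stood far apart. Summed over wells, Ptprc was 16.1-fold (95% counting interval 15.2 to 17.1) higher, Laptm5, a lysosomal protein of leukocytes, 19.3-fold and Lcp1, their actin-bundling plastin, 35.3-fold. The pan-leukocyte list was held by 84.3% of AT2-rich wells (75.8 to 90.8%), 57.4% of wells in between and 3.96% of low-epithelial wells. Within Mural2 it was held by 91.0% of AT2-rich and 7.94% of low-epithelial wells, and within Mural3 by 75.8% of AT2-rich and 2.93% of low-epithelial wells. Its summed level ran from 29.4 to 10686 CPM, with a median of 1323 CPM, over AT2-rich wells, and from 0 to 15869 CPM, with a median of 7.63 CPM, over low-epithelial wells.

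Genes of several kinds of leukocyte were read. Of 20 alveolar macrophage genes 3 passed, all of them also used by other myeloid cells, with a median log2 difference over the list of 1.35. Over all genes, 1.37% were higher, and 5 of the 20 had at least 50 CPM on a side. The protease Ctss stood at 363 CPM in AT2-rich and 11.5 CPM in low-epithelial wells, the lysosomal Cd68 at 73.7 CPM in AT2-rich and 5.90 CPM in low-epithelial wells, and the chemokine Ccl6 at 151 CPM in AT2-rich and 24.4 CPM in low-epithelial wells. Ear1, an eosinophil-associated ribonuclease typical of alveolar macrophages, had 0 reads in the AT2-rich wells and 0.699 CPM in low-epithelial wells. In the AT2-rich wells 3 reads would be 0.113 CPM. Marco, their scavenger receptor, had 0.490 CPM in AT2-rich and 0.240 CPM in low-epithelial wells, and the lectin Siglec5 had 0.679 CPM in AT2-rich and 0.262 CPM in low-epithelial wells. Of the 20 genes, 16 had a log2 difference above 0. Beside Ear1, Lpl, Ctsk and Ear6 went the other way, at -1.33, -0.79 and -0.43. Krt79, Fabp4, Abcg1 and Pparg were little higher, at 0.40, 0.42, 0.89 and 0.93. Some other genes of the list had larger ratios but stayed under the floor of 50 CPM. Itgax, the CD11c integrin chain, stood at 41.0 CPM in AT2-rich and 1.72 CPM in low-epithelial wells, and Chil3, a chitinase-like protein, at 28.7 CPM in AT2-rich and 2.32 CPM in low-epithelial wells. The mannose receptor Mrc1, Plet1 and Atp6v0d2 stood at 18.2, 13.4 and 14.8 CPM in AT2-rich wells, against 2.26, 0.857 and 0.278 CPM in low-epithelial wells.

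Monocyte and neutrophil genes were read as well. Of 13 interstitial macrophage and monocyte genes 3 passed. Csf1r, the macrophage growth factor receptor, stood at 176 CPM in AT2-rich and 13.5 CPM in low-epithelial wells. Ly6c2, of inflammatory monocytes, and the chemokine receptor Ccr2 each stood at 118 CPM in AT2-rich wells, against 1.58 and 4.09 CPM in low-epithelial wells. Of 9 neutrophil genes 4 passed. For both lists, the share of all genes that were higher was 1.37%. The cytokine gene Il1b stood at 213 CPM in AT2-rich and 4.47 CPM in low-epithelial wells, and Hdc, the histamine-making enzyme, at 148 CPM in AT2-rich and 2.49 CPM in low-epithelial wells. The calprotectin chains S100a8 and S100a9 stood at 78.0 and 72.1 CPM in AT2-rich wells, against 5.30 and 5.76 CPM in low-epithelial wells. None of 13 T and NK cell genes passed, with the T cell receptor chain Cd3e at 10.7 CPM in AT2-rich and 0.819 CPM in low-epithelial wells. Of 6 B cell genes only Cd79b passed, a chain of the B cell receptor, at 75.7 CPM in AT2-rich and 4.52 CPM in low-epithelial wells.

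Counted by wells, the interstitial macrophage and monocyte list was held by 57.8% of AT2-rich and 3.24% of low-epithelial wells, and the neutrophil list by 42.2% of AT2-rich and 0.721% of low-epithelial wells. The T and NK cell list was held by 18.6% of AT2-rich and 0.360% of low-epithelial wells, and the B cell list by 9.80% of AT2-rich and 0.721% of low-epithelial wells. AT2-rich wells also had more genes with a read at the same depth (medians of 4860 in AT2-rich and 3207 in low-epithelial wells), and the part of this in the shares was not tested. The alveolar macrophage list was held by 59.8% of AT2-rich and 11.7% of low-epithelial wells, but its summed level, with medians of 732 CPM in AT2-rich and 490.1 CPM in low-epithelial wells, overlapped widely.

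Platelet genes were also read in the AT2-rich wells. Ppbp, the platelet basic protein, ran from 0 to 1163 CPM, with a median of 115 CPM, over AT2-rich wells, against a median of 0 and a highest value of 1058 CPM in low-epithelial wells, and it was read after thinning in 72.5% of AT2-rich and 2.16% of low-epithelial wells. Pf4, platelet factor 4, stood at 88.5 CPM in AT2-rich wells, against 6.37 CPM in low-epithelial wells, and Itga2b, the platelet integrin chain, at 50.1 CPM in AT2-rich and 6.53 CPM in low-epithelial wells. Of 7 measured red cell and platelet genes these 3 passed, where 1.37% of all genes were higher. Hbb-bs, a beta globin of red cells, stood near 0, at 0.226 CPM in AT2-rich and 0.0546 CPM in low-epithelial wells. Alas2, the haem synthesis enzyme of red cell precursors, stood at 93.8 CPM in AT2-rich and 18.4 CPM in low-epithelial wells and did not pass. The list was held by 53.9% of AT2-rich wells (43.8 to 63.8%) and 1.08% of low-epithelial wells, with 65.7% of AT2-rich and 2.38% of low-epithelial wells within Mural2, and 33.3% of AT2-rich and 0.977% of low-epithelial wells within Mural3. Without the wells with row letters I to L of Mural2, where AT2-rich wells were most frequent, 41.1% of AT2-rich wells held it, and 75.0% held the pan-leukocyte list.

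**Figure D4:**
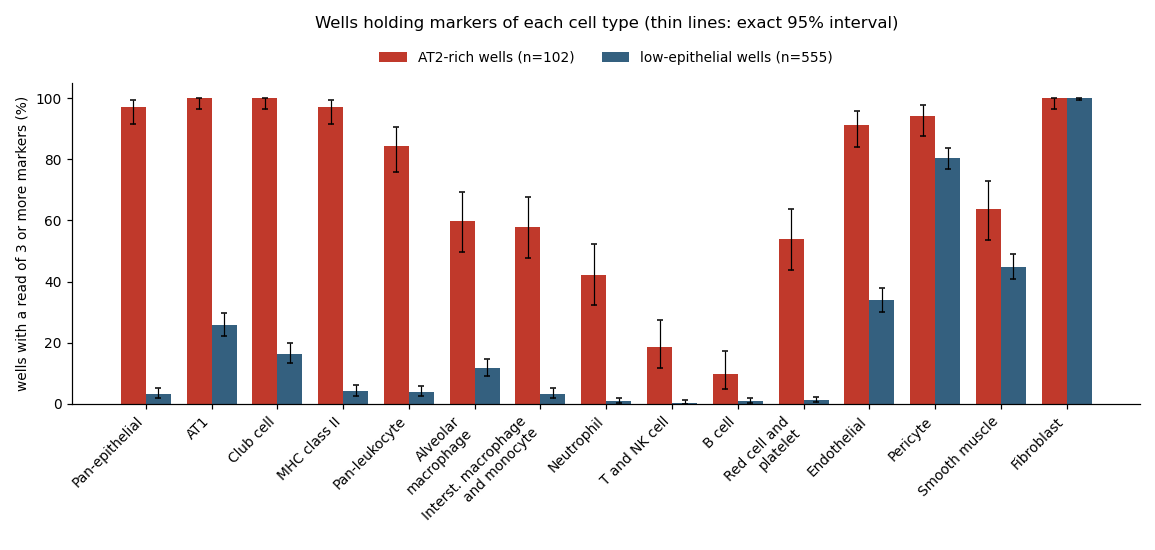
Bars give the percentage of wells with a read of 3 or more markers of each list after thinning to 50000 reads, AT2-rich wells (red, n = 102) left of low-epithelial wells (blue, n = 555), and thin lines are exact 95% intervals. Pan-leukocyte markers were held by 84.3% of AT2-rich and 3.96% of low-epithelial wells, endothelial markers by 91.2% of AT2-rich and 33.9% of low-epithelial wells, and fibroblast markers by 100% of both.

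Of 13 endothelial genes 5 passed and were higher, where 1.37% of all genes were. Of the 13, 9 had at least 50 CPM on a side, and 301 of all 4514 genes at that level were higher. Pecam1, the adhesion molecule of vessel lining cells, ran from 0 to 1768 CPM, with a median of 22.5 CPM, over AT2-rich wells, against a median of 0 and a highest value of 3567 CPM in low-epithelial wells. Its ranges overlapped, and summed over wells it was 6.07-fold (95% counting interval 5.80 to 6.36) higher. Cdh5, the endothelial cadherin, stood at 55.2 CPM in AT2-rich and 9.91 CPM in low-epithelial wells, and the tight junction gene Cldn5 at 92.3 CPM in AT2-rich and 16.1 CPM in low-epithelial wells. Egfl7 and Ptprb also passed. The other 8 did not, among them the receptors Eng and Tek, with 157 and 103 CPM in AT2-rich wells, against 244 and 126 CPM in low-epithelial wells, and Ramp2, at 139 CPM in AT2-rich and 131 CPM in low-epithelial wells. The list was held by 91.2% of AT2-rich and 33.9% of low-epithelial wells, by 91.0% and 36.5% of them within Mural2, and by 90.9% and 33.2% within Mural3. Its summed level ran from 12.3 to 8211 CPM over AT2-rich wells and from 0 to 32190.4 CPM over low-epithelial wells. Where it was held, its summed level had a median of 816 CPM in 93 AT2-rich wells and 743 CPM in 188 low-epithelial wells. That order held only with the sets pooled. Within Mural2 the medians were 978 CPM in 61 AT2-rich wells and 1107 CPM in 46 low-epithelial wells. Within Mural3 they were 559 CPM in 30 AT2-rich wells and 638 CPM in 102 low-epithelial wells. With at least 5 markers asked of a well, the pooled order also turned round, with medians of 979.7 CPM in 70 AT2-rich wells and 1337 CPM in 23 low-epithelial wells.

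The genes for which the wells had been sorted were still read. After thinning, Pdgfrb, the reporter's own gene, had a read in 94.1% of AT2-rich and 98.4% of low-epithelial wells, and before thinning the eGFP transcript had one in 98.0% of AT2-rich and 98.6% of low-epithelial wells. The levels were lower: eGFP had a median of 92.0 CPM in AT2-rich wells and 281 CPM in low-epithelial wells, with 85.5 CPM in AT2-rich and 494 CPM in low-epithelial wells of Mural2, and 109 CPM in AT2-rich and 227 CPM in low-epithelial wells of Mural3. Among AT2-rich wells, eGFP went with Pdgfrb (rho 0.75) and against the AT2 sum (rho -0.37).

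The stroma in the AT2-rich wells differed between the column sets, as it did in the low-epithelial wells. In Mural3, Dcn, the proteoglycan decorin of fibroblasts, ran from 2296 to 41732 CPM, with a median of 15615 CPM, over 33 AT2-rich wells and from 2.49 to 80507 CPM, with a median of 28343 CPM, over 307 low-epithelial wells. All 33 AT2-rich wells of Mural3 had Dcn at 1000 CPM or more, as had 93.8% of the low-epithelial wells there, so nearly every well of either group held fibroblast transcripts at a high level. In Mural2, Dcn had a median of 24.9 CPM in 67 AT2-rich wells and 11.9 CPM in 126 low-epithelial wells, yet summed over wells it stood at 3079.7 CPM in AT2-rich and 11954 CPM in low-epithelial wells. Medians and sums thus ordered the groups differently there.

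In Mural2, nearly every low-epithelial well had at least 1 of 3 stromal genes at a high level, and most AT2-rich wells had none of them there. With a threshold of 1000 CPM, chosen after the values were seen, Dcn was past it in 16 of 67 AT2-rich wells (23.9%) and 47 of 126 low-epithelial wells (37.3%), the smooth muscle actin gene Acta2 in 9 AT2-rich (13.4%) and 49 low-epithelial wells (38.9%), and Pdgfrb in 6 AT2-rich (8.96%) and 51 low-epithelial wells (40.5%). None of the 3 was past it in 36 AT2-rich wells, or 53.7% (41.1 to 66.0%), against 1 low-epithelial well, or 0.794%. In Mural3 the same held for 0 of 33 AT2-rich wells, which allows a share of up to 10.6%, and for 17 low-epithelial wells (5.54%). Both Dcn and Acta2 were past 1000 CPM in 0 of the 67 AT2-rich wells of Mural2, which allows a share of up to 5.36%, and in 1 low-epithelial well.

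The marker lists followed the same division. Pooled over sets, only 16 of 21947 genes (0.0729%) were past the rule and lower. Among them were 0 of 14 pericyte genes, 0 of 11 smooth muscle genes and 0 of 18 fibroblast genes. Counts of 0 in such short lists are near that share. The median log2 differences were -1.21, -1.56 and -1.22. Within Mural2, 1.15% of all genes were lower, or 252 of the 5072 genes with at least 50 CPM on a side. There, 8 of 14 pericyte genes were lower (median -2.15), 10 of 11 smooth muscle genes (-2.59) and 7 of 18 fibroblast genes (-1.97). Within Mural3, where 0.0501% of all genes were lower, none of the 3 lists had a member past the rule and lower, with medians of -0.10, -1.36 and -0.55. Surfactant and club cell transcripts take up part of the total, and with totals taken without them 3 pericyte, 9 smooth muscle and 5 fibroblast genes were lower within Mural2, and the pericyte median within Mural3 changed sign to 0.04.

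Individual stromal genes show the size of these differences within Mural2. Acta2 stood at 2375 CPM in AT2-rich wells and 12248 CPM in low-epithelial wells, with medians of 17.5 CPM in AT2-rich and 164 CPM in low-epithelial wells. Pdgfrb had medians of 183 and 747 CPM in the AT2-rich and low-epithelial wells of Mural2, and of 227 and 307 CPM in those of Mural3. Postn, a matrix protein that lung pericytes share with other stromal cells, stood at 434 CPM in AT2-rich and 2561 CPM in low-epithelial wells, and Myh11, the smooth muscle myosin, at 357 CPM in AT2-rich and 2833 CPM in low-epithelial wells, both within Mural2. Ces1d, a carboxylesterase on the fibroblast list, went the other way, at 369.98 CPM in AT2-rich wells, against 50.7 CPM in low-epithelial wells over all sets.

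**Figure D5:**
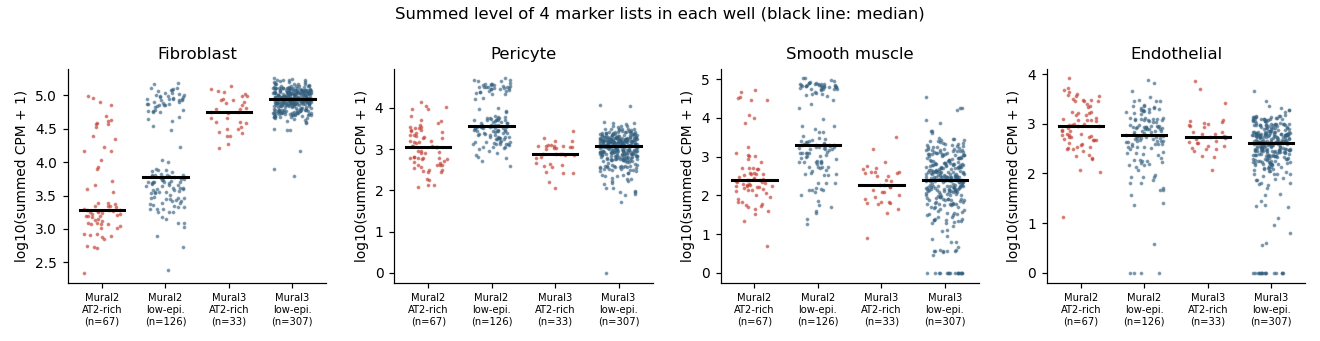
Each point is 1 well, and the vertical axes give the summed level of a marker list as log10(summed CPM + 1); AT2-rich wells (red) stand left of low-epithelial wells (blue) for Mural2 and Mural3, with a black line at the median. Fibroblast medians were 1935 CPM in AT2-rich and 5983 CPM in low-epithelial wells of Mural2, and 56112 CPM in AT2-rich and 87161 CPM in low-epithelial wells of Mural3, and in both sets the AT2-rich points overlap the low-epithelial ones.

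The summed lists give the level at which stromal transcripts stood in the same wells. The pericyte sum had medians of 1142 CPM in AT2-rich and 3638 CPM in low-epithelial wells of Mural2, and of 758 CPM in AT2-rich and 1165 CPM in low-epithelial wells of Mural3. The smooth muscle sum had medians of 244 CPM in AT2-rich and 2002 CPM in low-epithelial wells of Mural2, and of 182 CPM in AT2-rich and 255 CPM in low-epithelial wells of Mural3. Among wells that held a list, the AT2-rich median was 0.310 times the low-epithelial one for pericyte genes, 0.127 times for smooth muscle genes and 0.323 times for fibroblast genes in Mural2, and 0.539, 0.400 and 0.644 times in Mural3. Of the 67 AT2-rich wells of Mural2, 19 lay above the low-epithelial median for fibroblast genes, and of the 33 of Mural3, 8 did. These summed levels had lower medians in AT2-rich wells, with overlap. They are shares of a well's reads and not amounts of RNA. Fewer stromal cells, less RNA per cell and more RNA of other cells in the well cannot be told apart.

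Markers of several cell types met in single wells. Of 6 non-epithelial lists (pan-leukocyte, red cell and platelet, endothelial, pericyte, smooth muscle and fibroblast), 34 AT2-rich wells (33.3%) held all 6, 35 held 5, 19 held 4 and 14 held 3. A further 0 of the 102 held fewer, which allows a share of up to 3.55%. All 6 were held by 2 of the 555 low-epithelial wells (0.360%), and the fibroblast list was held by every well of both groups. The pan-leukocyte, endothelial and platelet lists were held together by 50 AT2-rich wells (49.0%) and 2 low-epithelial wells (0.360%). The pan-leukocyte and endothelial lists with at least 1 stromal list were held by 77.5% of AT2-rich and 1.80% of low-epithelial wells. The labels speak of single cells, and no file gives the number of cells in a well. A lone cell with RNA from the surrounding fluid, several cells in a well and a clump of cells cannot be told apart here.

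Complexity and position moved with the AT2-rich wells and are given beside these results. After thinning, AT2-rich wells had a median of 4860 genes with a read and low-epithelial wells 3207, with 4991 in AT2-rich and 3219.5 in low-epithelial wells of Mural2, and 4164 in AT2-rich and 3175 in low-epithelial wells of Mural3. Total reads ran from 100707 to 528930 (median 254214) in AT2-rich wells and from 101153 to 599733 (median 342115) in low-epithelial wells. The AT2 list took 14.6% of a well's reads at the median, with 17.0% in Mural2 and 5.14% in Mural3, and 0.0336% in low-epithelial wells.

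AT2-rich wells made up 1.56% of Mural1 (2 wells), 28.8% of Mural2 (67) and 8.82% of Mural3 (33). By the row letter in the well names, 46 of 69 wells (66.7%) in rows I to L of Mural2 were AT2-rich, against 2 of 44 in rows A to D, 12 of 47 in rows E to H and 7 of 73 in rows M to P. In Mural3 the counts were 21 of 92 in rows A to D, 6 of 91 and 6 of 95 in the rows between, and 0 of 96 in rows M to P, which allows a share of up to 3.77%. The AT2-rich wells were thus unevenly spread over the row letters, and the part of position in the results was not tested.

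Of the 16 genes lower in AT2-rich wells, Sema3d, a secreted guidance cue, had the largest fold, at 23.1 CPM in AT2-rich wells, against 136 CPM in low-epithelial wells. Eln, elastin, stood at 159 CPM in AT2-rich wells, against 901 CPM in low-epithelial wells, and Fn1, fibronectin, at 267 CPM in AT2-rich and 1276 CPM in low-epithelial wells. Omd, the small proteoglycan osteomodulin, stood at 35.7 CPM in AT2-rich and 192 CPM in low-epithelial wells. Gli1, a target of hedgehog signalling, and Evc, which acts in the same pathway at the cilium, stood at 13.2 and 17.7 CPM in AT2-rich wells, against 55.6 and 76.6 CPM in low-epithelial wells. Ugdh, which makes a precursor of matrix sugars, stood at 42.6 CPM in AT2-rich and 218 CPM in low-epithelial wells. All 16 were lower within both Mural2 and Mural3, 11 past the rule in Mural2 and 4 in Mural3, and their number rests on how the sets are pooled, as the count of 222 without Mural3 shows.

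Receptors and ligands of the alveolar niche, the signals between AT2 cells and their neighbours, were mixed. Of 18 genes, 3 passed and were higher, where 1.37% of all genes were. Fgfr2, the epithelial receptor for fibroblast growth factors, stood at 297 CPM in AT2-rich wells, against 54.3 CPM in low-epithelial wells. Met, the receptor for hepatocyte growth factor, and Csf2rb, a chain of the GM-CSF receptor, stood at 97.4 and 67.6 CPM in AT2-rich wells, against 6.46 and 4.93 CPM in low-epithelial wells. The ligands Fgf7 and Fgf10, made by fibroblasts, did not pass, with 61.4 and 19.6 CPM in AT2-rich wells, against 146 and 69.1 CPM in low-epithelial wells. Areg, an epidermal growth factor ligand, stood at 44.5 CPM in AT2-rich wells, under the floor of 50 CPM, and 0.175 CPM in low-epithelial wells. Of 15 immediate early and heat shock genes, which respond to dissociation, 0 were higher and 0 lower, where 1.37% and 0.0729% of all genes were. Their median log2 difference was -0.89, and Fos stood at 1775 CPM in AT2-rich and 3192 CPM in low-epithelial wells.

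The nearest comparison within the Mural columns was with the 17 club-rich wells, which lay in the same sets (9 in Mural2 and 8 in Mural3). Against them, 120 genes were higher in AT2-rich wells (0.547%) and 78 lower (0.355%). Of the 24 AT2 genes 13 were higher, with a median log2 difference of 2.09, and 11 of 14 club cell genes were lower (-5.09), which the choice of wells favours. The genes lowest in AT2-rich wells by fold were Reg3g, an antimicrobial lectin, at 22.1 CPM in AT2-rich and 5229.6 CPM in club-rich wells, Tff2, a trefoil peptide, at 1.88 CPM in AT2-rich and 359.6 CPM in club-rich wells, and Gabrp, a receptor subunit, at 0.905 CPM in AT2-rich and 149 CPM in club-rich wells. The airway mucin Muc5b and the secretoglobin Scgb3a1 stood at 20.8 and 75.8 CPM in AT2-rich wells, against 1606 and 6707 CPM in club-rich wells.

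Of the other lists, MHC class II genes and some smooth muscle genes passed between AT2-rich and club-rich wells. All 7 MHC class II genes were past the rule and higher in AT2-rich wells (median log2 difference 2.90), while none of the 12 pan-leukocyte (1.19), 13 endothelial (0.11), 14 pericyte (-0.10) and 18 fibroblast genes (-0.06) passed. Of 11 smooth muscle genes 4 passed, and Acta2 stood at 1416 CPM in AT2-rich wells against 28.3 CPM in club-rich wells. That level came from few wells: Acta2 had a median of 9.58 and a highest value of 33231 CPM over AT2-rich wells, and a median of 9.84 and a highest value of 203 CPM over club-rich wells. Ccl3, a chemokine of myeloid cells, had 108 CPM in AT2-rich wells against 4 reads in all club-rich wells together, and was read in 26.5% of AT2-rich and 5.88% of club-rich wells. The pan-leukocyte list was held by 84.3% of AT2-rich wells (75.8 to 90.8%) and 58.8% of the 17 club-rich wells (32.9 to 81.6%), intervals that overlap, and the endothelial list by 91.2% of AT2-rich and 76.5% of club-rich wells.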

How the data were processed

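Every result was computed from the raw counts, reads per gene in each well, that the authors deposited, beside which stood a deposited table of scores. In the deposited score table the values of a well summed to between 498422 and 501788, and it served only as an alternative. The submitters' processing notes name STAR 2.4.2a as aligner and mm10 as build. The program that counted reads, its annotation and any filter on wells are not given in the sources used here. The names of all 1504 columns gave a column set, but no label or column name ties a Mural set to a reporter group. Only the numbers of wells match, and no mapping was assumed. Samples are wells, and column sets come from the column names.

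CPM were computed on the total over 21947 genes, without eGFP. For the size rule and log2 values, read sums under 3 were raised to 3. Intervals were exact (Clopper-Pearson for shares, Poisson for reads, conditional for ratios), from scipy 1.17.1 under Python 3.11.15. Shares of wells used reads thinned to 50000 with seed 1. No doublet caller was run, since wells are described whole, and no well was removed. Gene positions come from the GRCm38 annotation, counted from 1.

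The wells, the 24 gene lists and the rules were chosen with earlier results of these data known. Named are Sftpc, Scgb1a1, Lyz2 and the reporters, the 15 largest folds in each direction against low-epithelial wells (10 against club-rich wells), up to 6 members of each list, and any AT2, macrophage, stromal or endothelial list member; predicted, ribosomal and mitochondrial genes were not named. Reads of near-identical genes (Lyz1 and Lyz2, the Ear, globin and MHC class II families) may have been split between copies. Alternatives covered scaling, filters, thresholds, the score table and each column set.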

Additional observations from a re-analysis of the deposited data

Results flagged for a closer look

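Outside the comparisons, 3 of the 769 Cldn5-eGFP wells, sorted for an endothelial reporter, held Sftpc at 10000 CPM or more, and 1 lay in each of the column sets EC1, EC2 and EC3. The well of EC1 had 143224 CPM of Sftpc, 7908 CPM of Lyz2 and 336 CPM of Cldn5. The well of EC2 had 224579, 91859.7 and 235 CPM of the same genes, and the well of EC3 226959, 44355 and 6.26 CPM. They stand out because their surfactant level was that of the upper AT2-rich wells, in a sort on another reporter.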

How the results depend on the processing

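Of the 249 values recomputed under an alternative, 187 moved by less than 1.5 times (counts) or less than the interval or the spread over wells (others), 61 moved further and 1, the endothelial level where held, changed sign. List medians of log2 differences under other scalings were compared apart from these. Genes higher in AT2-rich than in low-epithelial wells numbered 301, 4906 with no filter on level, 511 with a floor of 20 CPM, 494 with a fold of 2 and 165 without Mural2. Genes lower numbered 16, 36 with median-ratio scaling, 10 with totals without surfactant and club transcripts, 509 with no filter, 485 with a fold of 2, 0 with a fold of 8, 4 and 83 with Sftpc thresholds of 5000 and 20000 CPM, 222 without Mural3 and 49 with low-epithelial wells weighted by set. The median-ratio scaling and the reduced totals moved the median of all genes by -0.21 and 0.24 on the log2 scale.
Against club-rich wells, 120 genes were higher, 1581 with no filter, 262 with a floor of 20 CPM and 253 without Mural2, and 78 were lower, 3515 with no filter, 134 with a floor of 20 CPM, 162 without Mural2 and 192 without Mural3. With at least 2 or at least 5 markers asked in place of 3, the share of AT2-rich wells holding a list was 94.1% and 63.7% for pan-leukocyte markers, 77.5% and 3.92% for red cell and platelet markers, 97.1% and 68.6% for endothelial markers, 99.0% and 63.7% for pericyte markers and 80.4% and 15.7% for smooth muscle markers. Without Mural2 the pan-leukocyte, red cell and platelet, pericyte and smooth muscle shares were 71.4%, 31.4%, 82.9% and 37.1%, and without Mural3 the pericyte and smooth muscle shares were 100% and 75.4%. Without the wells with row letters I to L of Mural2, left out after the data had been seen, the pan-leukocyte share was 75.0% and the red cell and platelet share 41.1%. The log2 ratio of medians of the AT2 sum was 8.76 and 7.38 without Mural2, and that of the pan-leukocyte sum 7.26 and 5.24 without Mural3. Pooled over sets, the endothelial level where held had a log2 ratio of 0.14, and -0.45 with at least 5 markers. Within Mural2 and within Mural3 the AT2-rich median was the lower one with 3 markers already. The rho of Lyz2 with the AT2 sum was 0.84, 0.76 within Mural2 and 0.90 within Mural3. The direction of the list medians of niche genes in Mural2 and Mural3, mesothelial genes in Mural2, and pericyte genes and reporters in Mural3 changed with the scaling. No cause of these changes was tested. No paired analysis was possible because the wells carry no replicate number. Without replicates, no spread between animals is known, and a share of 0 is limited by the number of wells.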
